A study of Mus musculus with 8 samples.

Results

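Transcripts of 7 mouse genes of the major histocompatibility complex (MHC) class II presentation pathway were followed in the gastrocnemius, a calf muscle, of septic and control mice. The genes were chosen by name: the chains H2-Aa, H2-Ab1 and H2-Eb1, the invariant chain Cd74, the peptide editors H2-DMa and H2-DMb1, and the class II transactivator Ciita. All 7 were found among the 25655 gene rows of the count table. Groups were 3 sepsis samples, which received cecal slurry, a suspension of gut contents that seeds a polymicrobial infection, and 5 control samples, which received 10% glycerol. Every sample came from male wild-type (WT) mice at day 4, and the question was how sepsis alters gene expression in skeletal muscle. Strain and age are not given in the labels. Nor is it stated whether each sample is a different animal, so every p-value reflects the variation among these samples, which may be technical.

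Class II molecules display peptides from proteins taken up by a cell to CD4+ helper T cells. They are paired α and β chains that assemble around the invariant chain in the endoplasmic reticulum. Endosomal proteases then cut the invariant chain down to a short peptide, which H2-DM exchanges for antigen. CIITA, the coactivator encoded by Ciita, switches the genes of the pathway on. It binds no DNA itself and is held at their promoters by RFX, CREB-family and NF-Y proteins, which sit on the X, X2 and Y boxes. In muscle, class II is known mainly from macrophages and dendritic cells between the fibres rather than from the fibres. In a bulk sample such as these, fewer cells of a type and less RNA per cell cannot be told apart.

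The promoter stretches below show where letters of these boxes occur in 3 of the class II genes, and in class I genes that moved the other way in sepsis. Each is the 150 bases before the transcription start in RefSeq on build GRCm38.p6, written along the gene's strand. That build is earlier than GRCm39, the build used for the counts. Capitals mark matches, on either strand, to ATTGG (Y box), GNAACNGAT (X box core) and TGACG (X2 core). These letters were chosen with the boxes already known. Of the letters searched, only the Y box is in all 5 stretches: H2-Eb1 and H2-DMb1 add an X box core, and H2-Aa, H2-D1 and B2m add an X2 core. In H2-Aa an X2 match on each strand overlaps the other, which gives a longer run in capitals.
H2-Aa, chr17:34287824-34287973, minus strand: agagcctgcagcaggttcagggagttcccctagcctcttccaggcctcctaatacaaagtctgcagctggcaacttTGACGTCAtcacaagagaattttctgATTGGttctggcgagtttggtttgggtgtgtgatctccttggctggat
H2-Eb1, chr17:34305717-34305866, plus strand: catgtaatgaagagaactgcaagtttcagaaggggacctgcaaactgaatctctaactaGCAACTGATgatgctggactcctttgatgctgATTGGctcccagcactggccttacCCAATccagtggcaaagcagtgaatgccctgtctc
H2-DMb1, chr17:34153041-34153190, plus strand: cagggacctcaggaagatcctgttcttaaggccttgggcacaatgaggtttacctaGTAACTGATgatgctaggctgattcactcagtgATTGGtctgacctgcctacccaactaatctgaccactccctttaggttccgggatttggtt
H2-D1, chr17:35262944-35263093, plus strand: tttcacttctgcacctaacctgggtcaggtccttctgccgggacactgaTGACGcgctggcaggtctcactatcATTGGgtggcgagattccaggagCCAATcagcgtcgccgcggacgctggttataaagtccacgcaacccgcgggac
B2m, chr2:122147537-122147686, plus strand: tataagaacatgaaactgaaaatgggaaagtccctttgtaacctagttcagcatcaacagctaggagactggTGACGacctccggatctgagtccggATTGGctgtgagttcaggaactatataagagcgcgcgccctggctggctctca

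Counted to its first base, a Y box match on the gene's strand lay 48 bases before the start in H2-Aa, 59 in H2-Eb1 and 61 in H2-DMb1. The X box core matched farther upstream, at 91 bases in H2-Eb1 and 94 in H2-DMb1, whereas H2-Aa held X2 matches at 74 and 71. In the class I genes the Y box match lay at 76 bases in H2-D1 and 53 in B2m, with an X2 match at 101 in H2-D1 and 78 in B2m. Such short motifs are common. Over 32851 RefSeq promoter windows of all genes, with 250 bases before the start searched, ATTGG matched in 33.8%, TGACG in 17.8% and GNAACNGAT in 1.75%. A Y box together with an X box core or X2 match was found in 6.60%. The windows searched for the family covered 4 of the 7 members: H2-Aa, H2-Eb1, H2-DMa and H2-DMb1. The chromosome of Cd74 was left out of that search, so Cd74 was not examined. Neither window of H2-DMa had an X box core or X2 match. These matches describe letters, not binding, and a box spelled with other letters would be missed, so no match does not show that a box is absent.

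The libraries were made from 25 ng of total RNA with a QuantSeq kit, which reads a short stretch at the 3′ end of a transcript, and counts therefore needed no correction for length. They held 3337851 to 3765726 reads in sepsis and 3086277 to 4016329 in control. Levels are given as CPM, which puts counts on the same scale in each library, with library sizes adjusted by edgeR's trimmed mean method (TMM). The scaling factors were 1.13 to 1.30 in sepsis and 0.888 to 0.909 in control, and 1 read corresponded to 0.209 to 0.265 CPM in sepsis libraries and 0.276 to 0.36 CPM in control libraries. The mitochondrial genome gave 12.6% to 16.9% of reads in sepsis and 21.7% to 26.7% in control. Markers of skeletal muscle summed to 94900 to 122000 CPM in sepsis and 185000 to 216000 CPM in control, so the labelled tissue's markers were abundant in every library. A gene was called when its p from the quasi-likelihood test of edgeR, adjusted over 9810 tested genes after Benjamini and Hochberg, was under 0.05.

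Class II transcripts were scarcer in septic muscle. Of the 7 members, 6 passed the filter on low counts, and 5 of these fell: H2-Aa, H2-Ab1, H2-Eb1, Cd74 and H2-DMa. None rose, H2-DMb1 did not pass the test, and Ciita had too few reads to enter it. Over all tested genes, 25.2% were called lower in sepsis and 25.2% were called higher. The median log2 fold change, sepsis over control, was -2.07 over the 6 tested members and 0.01 over all tested genes. H2-DMa passed the filter through its control libraries, so it could be tested only because it was not low there. H2-Ab1, H2-Eb1 and H2-DMb1 also needed control libraries to pass. H2-Ab1 fell short in sepsis replicate 1 (7 reads) and H2-Eb1 in sepsis replicate 3 (8 reads). H2-Aa and Cd74 reached the filter's level in every sepsis library.

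H2-Aa, the α chain of the classical class II molecule I-A, had 4.24, 4.81 and 2.73 CPM in sepsis, against 39.0, 31.6, 20.1, 18 and 20.6 CPM in control. Every sepsis library lay below every control library. The means were 3.93 ± 1.08 CPM in sepsis (SD, n = 3) and 25.9 ± 9.04 CPM in control (SD, n = 5), a 6.56-fold decrease. The log2 fold change was -2.71 (SE 0.32, adjusted p = 1.93e-05). Only 1.68% of tested genes had a more negative log2 fold change.

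H2-Ab1, the β chain that pairs with H2-Aa, had 1.85, 4.18 and 5.68 CPM in sepsis, against 37.3, 24.1, 18.6, 16.9 and 18.1 CPM in control. All control libraries lay above the highest sepsis library, and control replicate 1 was the highest of them. H2-Ab1 fell 5.78-fold (log2 fold change -2.53, SE 0.36, adjusted p = 0.000128). H2-Aa and H2-Ab1 had similar means within each group, 3.93 and 3.91 CPM in sepsis and 25.9 and 23 CPM in control. Single sepsis libraries differed more. H2-Aa was higher than H2-Ab1 in sepsis replicate 1 (4.24 against 1.85 CPM) and lower in sepsis replicate 3 (2.73 against 5.68 CPM).

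H2-Eb1, the β chain of I-E, had 2.91, 5.23 and 1.82 CPM in sepsis, against 23.2, 12.8, 9.30, 16.2 and 10.5 CPM in control. Again the groups did not overlap, with control replicate 3 nearest to sepsis replicate 2. H2-Eb1 fell 4.26-fold (log2 fold change -2.09, SE 0.39, adjusted p = 0.000689). Its α partner H2-Ea had no read in any of the 8 libraries, which allows a level of up to 0.103 CPM over all of them. The other β gene of that region, H2-Eb2, had 0 reads in sepsis and 1 in control.

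Cd74 encodes the invariant chain, which fills the peptide groove of new class II molecules and steers them to endosomes. It had 2.65, 6.90 and 2.96 CPM in sepsis, against 21.8, 12.5, 14.7, 13.3 and 14.9 CPM in control. Sepsis replicate 2 was the highest of its group and control replicate 1 of its own, and the groups stayed apart. Cd74 fell 3.63-fold (log2 fold change -1.86, SE 0.32, adjusted p = 0.000317).

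**Figure D1:**
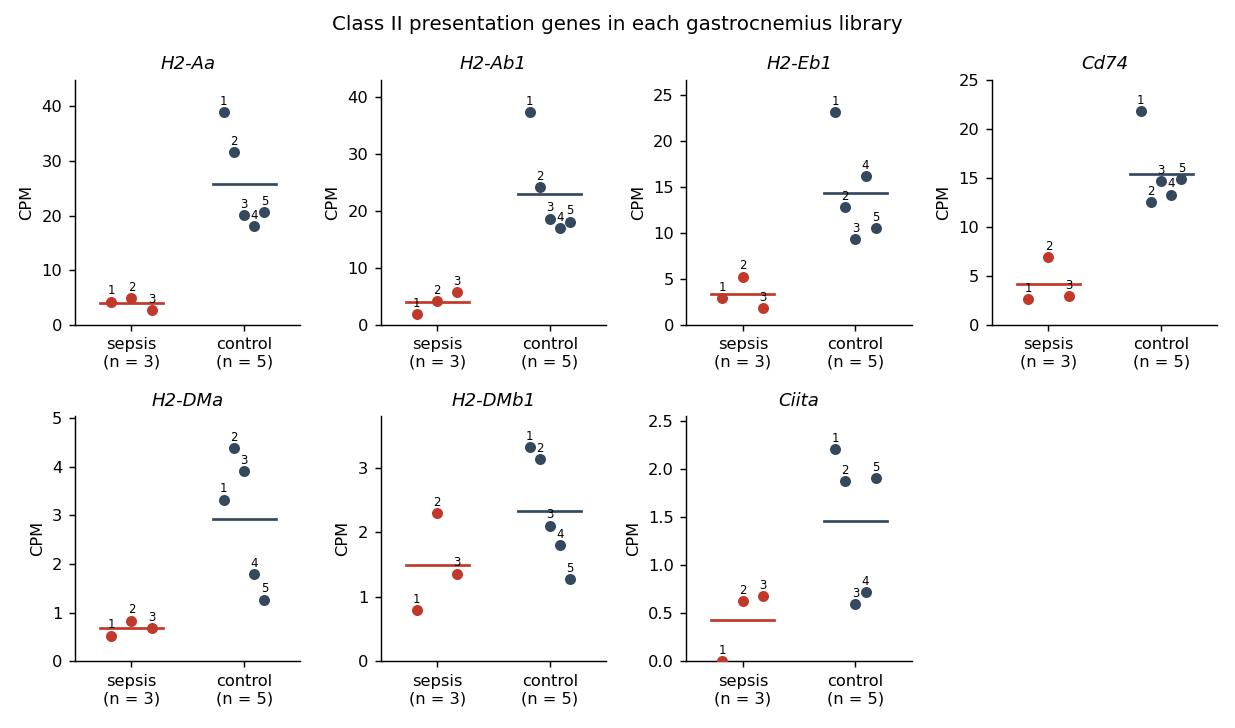
Level of each of the 7 class II genes in every library, in TMM-scaled CPM on an axis from 0, with sepsis left of control in each panel; points are libraries with their replicate numbers and lines are group means. H2-Aa lies at 2.73 to 4.81 CPM in sepsis and 18 to 39.0 CPM in control, while the H2-DMb1 points of the groups overlap.

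The peptide editor H2-DM is built from H2-DMa and H2-DMb1, and its genes were read only a few times per library. H2-DMa had 2, 4 and 3 reads in sepsis, against 12, 14, 13, 5 and 4 reads in control. These correspond to 0.683 ± 0.154 CPM in sepsis (SD, n = 3) and 2.93 ± 1.34 CPM in control (SD, n = 5). H2-DMa fell 4.13-fold (log2 fold change -2.04, SE 0.53, adjusted p = 0.00596), with no overlap in CPM although the raw counts touch at 4 reads.

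H2-DMb1 had 3, 11 and 6 reads in sepsis, against 12, 10, 7, 5 and 4 reads in control. Sepsis replicate 2 lay above 3 of the 5 control libraries in CPM. The log2 fold change of -0.61 (SE 0.47) was not called (adjusted p = 0.294), and 24.5% of tested genes had a more negative one. Its near-identical neighbour H2-DMb2 had 6 reads in sepsis and 9 in control, and reads could have been split between these genes. For each 100 H2-DMa reads there were 150, 275 and 200 H2-DMb1 reads in sepsis, and 53.8 to 100 in control. The difference between the H2-DMa and H2-DMb1 changes was not tested.

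Ciita had 0, 3 and 3 reads in sepsis, against 8, 6, 2, 2 and 6 reads in control. Control replicate 3, at 0.600 CPM, lay inside the sepsis range of 0 to 0.682 CPM, and the other control libraries lay above it. Pooled over libraries these are 6 reads in sepsis and 24 in control, a depth-scaled ratio of 0.310 (exact 95% interval 0.104 to 0.779, counting error only). Without the filter on low counts edgeR's adjusted p for Ciita was 0.109. H2-Oa and H2-Ob, the chains of H2-O, which restrains H2-DM in B cells, each had 0 reads in sepsis and 1 in control.

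Of the 6 tested members, 5 lay below control in every sepsis library, beside 24.3% of all tested genes with such a separation and 23.1% separated upwards. Summed over the 7 members, the level was 13.0, 24.9 and 15.9 CPM in sepsis, against 130, 90.4, 69.3, 68.8 and 68.6 CPM in control. The mean sum in sepsis was 0.210 of that in control, a 4.77-fold difference, and 3.51-fold with library totals in place of TMM. Sepsis replicate 2 had the highest sum in sepsis and control replicate 1 the highest in control. Leaving out control replicate 1 gave a ratio of 0.241, and leaving out sepsis replicate 2 gave 0.169.

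The make-up of the class II reads shifted less than their total. In sepsis H2-Aa made 21.4% of the 238 member reads, H2-Ab1 21.8%, Cd74 23.5% and H2-Eb1 18.5%. In control the shares of the 1398 reads were 30.3% for H2-Aa, 27.0% for H2-Ab1, 18% for Cd74 and 16.7% for H2-Eb1. H2-DMb1 made 8.40% in sepsis and 2.72% in control. In every sepsis library its share, 6.12% to 9.24%, was above its share in every control library, 1.85% to 3.46%. The ratio of the I-A chains varied more between sepsis libraries. For each 100 H2-Ab1 reads there were 229, 115 and 48.0 H2-Aa reads in sepsis, on 7 to 25 H2-Ab1 reads a library, and 104 to 131 in control.

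Genes that act on antigens or class II molecules after synthesis were called in both directions. Of 14 listed genes for antigen processing and class II turnover, 12 were tested, 6 rose, Sppl2a fell and 5 were not called, with a median log2 fold change of 0.62. With upper-quartile factors, and also without sepsis replicate 3, the counts were 5 higher and 2 lower. Cathepsin L, which cuts the invariant chain in the thymus and degrades proteins in lysosomes elsewhere, is encoded by Ctsl. It had 236, 259 and 243 CPM in sepsis, against 62.5, 36.9, 41.7, 42.1 and 46.7 CPM in control, a clean separation. Ctsl rose 5.33-fold (log2 fold change 2.42, SE 0.15, adjusted p = 6.01e-08).

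Ifi30, the thiol reductase GILT that opens disulphide bonds of antigens in lysosomes, had 42.6, 29.5 and 24.6 CPM in sepsis, against 9.12, 3.75, 7.20, 6.84 and 5.08 CPM in control. It rose 4.97-fold (log2 fold change 2.31, SE 0.25, adjusted p = 8.17e-06). The lysosomal proteases Ctsd and Ctsb rose as well, by 1.42 and 0.78 on the log2 scale, and so did the tetraspanin Cd82, by 1.34. Cd82 passed the filter on low counts only with its sepsis libraries. Sppl2a, the membrane protease that clears the last stub of the invariant chain, fell by 0.87 on the log2 scale (SE 0.14, adjusted p = 0.000218).

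Cathepsin S, from Ctss, is the main protease of the invariant chain in dendritic cells and B cells. Its levels were 21.5, 39.5 and 16.4 CPM in sepsis, against 22.4, 4.38, 7.80, 4.68 and 8.57 CPM in control, where control replicate 1 reached the sepsis range. Ctss was called narrowly (log2 fold change 1.40, SE 0.51, adjusted p = 0.0480), and its adjusted p over 15 alternative settings ran from 0.000612 to 0.191. The call was lost in 11 of them, which included leaving out sepsis replicate 1, 2 or 3 (adjusted p 0.0841, 0.191 and 0.0605) and control replicate 2, 3, 4 or 5 (0.0803, 0.0956, 0.0790 and 0.0907).

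Among 18 genes for class II transcription and interferon-γ signalling, 13 were tested, 3 rose and 3 fell, with a median log2 fold change of 0.01. Interferon-γ, the usual inducer of Ciita outside professional presenting cells, signals through receptor chains from Ifngr1 and Ifngr2. Its own gene Ifng had no read in any of the 8 libraries. Ifngr2 had 9.27, 13.8 and 8.87 CPM in sepsis, against 31.8, 36.6, 46.5, 33.9 and 36.5 CPM in control. It fell 3.45-fold (log2 fold change -1.79, SE 0.20, adjusted p = 8.96e-06).

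Ifngr1 moved the other way, with 26, 33.3 and 39.6 CPM in sepsis and 15.2, 15, 17.7, 21.6 and 17.1 CPM in control (log2 fold change 0.93, SE 0.18, adjusted p = 0.000704). The transcription factors Irf2 and Irf1 rose by 0.80 and 0.91 on the log2 scale. Irf1 (adjusted p = 0.0214) was not called without sepsis replicate 3 (0.206) or without control replicate 2 (0.0532). The kinase Jak2 fell by 0.67 and the NF-Y subunit Nfyb by 0.78 on the log2 scale. With library totals in place of TMM neither was called (adjusted p = 0.195 for Jak2 and 0.155 for Nfyb), and the list then had 5 genes higher and 1 lower.

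The RFX subunits Rfx5, Rfxap and Rfxank, which hold CIITA at the X box, did not pass the test, with log2 fold changes of -0.31, 0.16 and 0.56 and adjusted p of 0.506, 0.494 and 0.329.

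**Figure D2:**
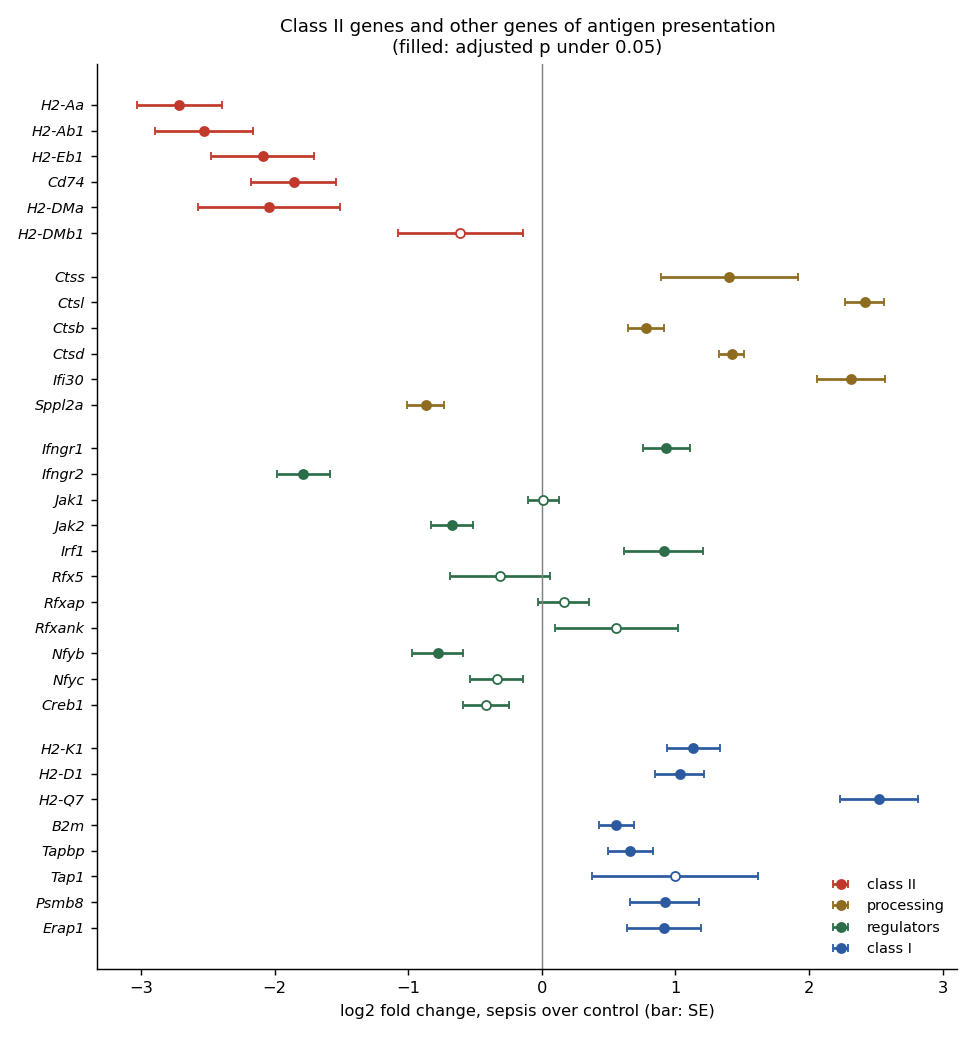
Log2 fold change, sepsis over control, with its SE as a bar, for the tested class II genes and for named genes of antigen processing, class II transcription and class I presentation. H2-Aa, at -2.71, and the other class II genes lie left of 0, and H2-Q7, at 2.53, and Ctsl, at 2.42, lie farthest right of it.

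Class I presentation, which shows peptides from inside the cell to CD8+ T cells, moved in the opposite direction. Of 18 listed class I genes, 13 were tested, 7 rose and none fell, with a median log2 fold change of 0.66. The class I heavy chain H2-K1 had 52.4, 85.6 and 90.5 CPM in sepsis, against 46.2, 36.6, 29.7, 28.1 and 32.7 CPM in control. The groups did not overlap, with sepsis replicate 1 just above control replicate 1. H2-K1 rose 2.20-fold (log2 fold change 1.13, SE 0.20, adjusted p = 0.000379), and H2-D1, the second classical heavy chain, rose 2.04-fold.

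H2-Q7, a nonclassical class I heavy chain, rose 5.76-fold, with 7.95, 13.0 and 13.9 CPM in sepsis and 1.66, 2.50, 2.10, 2.52 and 1.27 CPM in control (log2 fold change 2.53, SE 0.29, adjusted p = 1.27e-05). H2-Q7 had 4 to 8 reads in each control library and passed the filter on low counts through its sepsis libraries. It could thus be tested, and counted among the risers, only because it was not low there. Class I heavy chains resemble each other closely, so reads could have been split among them. B2m, the light chain they share, rose by 0.56 on the log2 scale (adjusted p = 0.00271). The peptide-loading protein Tapbp, the immunoproteasome subunit Psmb8 and the trimming peptidase Erap1 were the other risers. Psmb8 and Erap1 were not called without sepsis replicate 3 (adjusted p = 0.0568 for Psmb8 and 0.120 for Erap1).

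A ratio of reads within a library needs no scaling between libraries. For each 100 reads of the class I list there were 2.18, 2.88 and 1.88 class II member reads in sepsis, against 23.5, 18.8, 14.0, 13.8 and 14.9 in control. The highest sepsis ratio was thus below the lowest control ratio by more than the spread within either group.

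Markers of macrophages and monocytes, cells that can carry class II in muscle, were called higher or not called. Of 20 listed macrophage and monocyte markers, 12 were tested, 7 rose and none fell, with a median log2 fold change of 1.20. Their summed level was 369 to 629 CPM in sepsis and 114 to 251 CPM in control. Without sepsis replicate 2 the list had 4 genes higher. Cd68, a lysosomal protein of macrophages, had 99.3, 78.9 and 149 CPM in sepsis, against 7.74, 2.50, 3.60, 2.16 and 1.91 CPM in control (log2 fold change 4.87, SE 0.36, adjusted p = 2.75e-06). Cd68 passed the filter on low counts only with its sepsis libraries.

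The scavenger receptor Cd163 and the complement gene C1qb, both known from tissue macrophages, rose by 1.94 and 1.76 on the log2 scale. Csf1r, the receptor for a macrophage growth factor, did not pass the test, at 30.8 ± 9.51 CPM in sepsis (SD, n = 3) and 26.5 ± 6.52 CPM in control (SD, n = 5; adjusted p = 0.468). Nor did the monocyte chemokine receptor Ccr2, at 1.85, 4.39 and 1.36 CPM in sepsis and 8.29, 1.56, 4.80, 1.08 and 4.76 CPM in control (log2 fold change -0.69, SE 0.60, adjusted p = 0.356). Its log2 fold change stayed negative over 15 alternative settings, from -1.37 to -0.26. Of 10 pan-leukocyte markers 7 were tested, 4 rose and none fell, and their sum was 43.2 to 97.3 CPM in sepsis and 14.4 to 50.04 CPM in control. Control replicate 1 gave that highest control value, and without it all 7 were called higher. Ptprc, which encodes CD45, rose by 1.5 on the log2 scale (SE 0.41, adjusted p = 0.00825). Ptprc and the risers Itgb2 and Spi1 passed the filter on low counts only with their sepsis libraries.

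**Figure D3:**
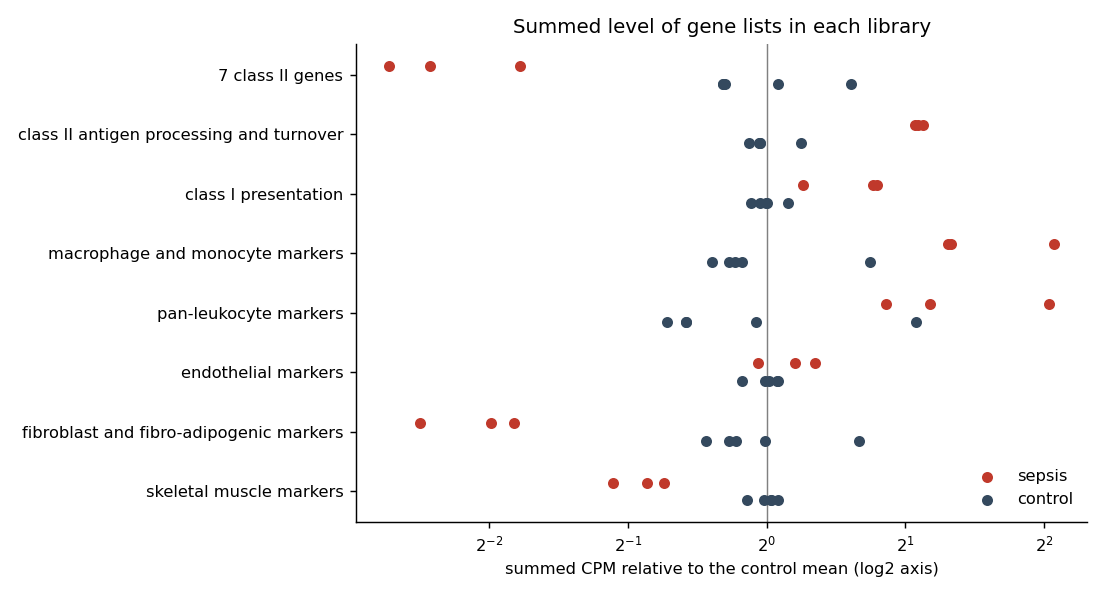
Summed CPM of gene lists in every library, relative to the control mean on a log2 axis, with sepsis above control in each row and points for libraries. Rows are the class II genes, the antigen processing and class I lists, and macrophage and monocyte, pan-leukocyte, endothelial, fibroblast and skeletal muscle markers. The class II sum lies at 0.152 to 0.291 of the control mean in sepsis, and the macrophage and monocyte sum at 2.47 to 4.20 of it.

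For each 100 reads of the macrophage and monocyte list there were 3.46, 3.96 and 4.31 class II member reads in sepsis, against 51.9, 70.8, 52.4, 60.4 and 55.4 in control. Set against the pan-leukocyte list the ratios were 30.1, 25.6 and 29.7 in sepsis and 260, 401, 481, 434 and 432 in control. Against C1qa, C1qb, C1qc and Csf1r alone they were 11.6, 13.8 and 19.9 in sepsis and 124 to 174 in control. None of these 3 ratios overlapped between the groups. The class II sum alone already separated the groups, so these ratios, like the ratio to class I reads, are no separate test of its fall. Control replicate 1, the library richest in class II, had the lowest control ratio to pan-leukocyte reads.

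**Figure D4:**
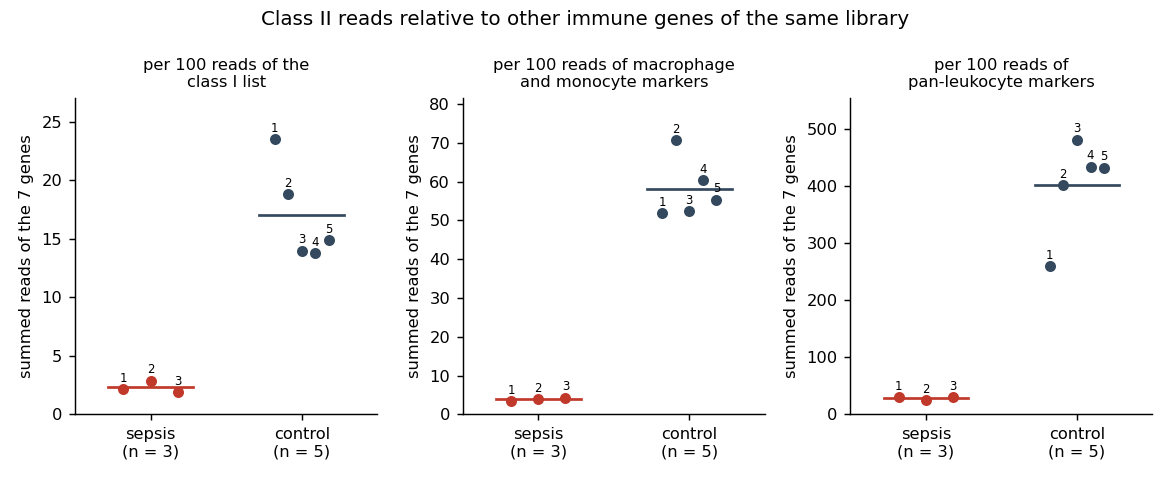
Class II member reads per 100 reads of the class I list, of the macrophage and monocyte markers and of the pan-leukocyte markers, in every library on an axis from 0, with sepsis left of control, points for libraries and lines for group means. All sepsis points lie below all control points, for example 3.46 to 4.31 against 51.9 to 70.8 for macrophage and monocyte markers.

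Dendritic cells, which carry class II at high density, were near the limit of this depth. Of 14 listed markers 5 were tested, Clec10a rose and Cst3 fell. Cst3, which many cell types express, made up most of the list's summed level of 281 to 322 CPM in sepsis and 487 to 602 CPM in control. Clec10a, which macrophages also express, had 7.42, 33.1 and 7.5 CPM in sepsis, against 7.46, 3.13, 6.60, 2.16 and 4.13 CPM in control. Its call (adjusted p = 0.0319) was lost in 7 of 15 alternative settings, with the highest adjusted p, 0.252, under the replicate block. Among the 7 were leaving out sepsis replicate 2 (0.183) and control replicate 2, 4 or 5 (0.0669, 0.0577 and 0.0655). Without sepsis replicate 2 the list had 0 genes higher and 2 lower, and likewise with no filter on low counts.

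The markers most restricted to dendritic cells had few reads. Flt3 had 0 reads in sepsis and 3 in control, Cd209a had 0 in sepsis and 8 in control, and the plasmacytoid marker Siglech had 0 in sepsis and 7 in control. No read over the sepsis libraries allows a level of up to 0.232 CPM. Xcr1 had 2 reads in sepsis and 6 in control, Clec9a had 11 in sepsis and 9 in control, Itgax had 5 in sepsis and 9 in control, and Ccr7 had none in either group. Of the other listed markers, Batf3 had 2 reads in sepsis and 6 in control. Irf4 went the other way, with 9, 5 and 6 reads in sepsis, against 1, 3, 3, 2 and 1 in control. Irf8, Naaa and Zbtb46 were tested and not called, with log2 fold changes of -0.37, -0.58 and 0.26 (adjusted p = 0.232, 0.278 and 0.396). The part of dendritic cells in the class II values was not tested.

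None of 8 B cell and 9 T cell markers had enough reads to be tested. B cell markers summed to 0.682 to 1.88 CPM in sepsis and 1.08 to 2.70 CPM in control, with 3 of them at 0 in all libraries. T cell markers summed to 0.795 to 1.36 CPM in sepsis and 0 to 1.80 CPM in control, again with 3 at 0. Neutrophil markers stood at 66.5 to 147 CPM in sepsis and 0.300 to 1.27 CPM in control, and all 4 tested of 10 rose. These 4 passed the filter on low counts through their sepsis libraries alone. They could be tested only because they were high there, so their count carries no weight of its own. S100a8 and S100a9 gave 821 and 512 of the list's 1538 sepsis reads. Of the untested markers, Ly6g had 2 reads in sepsis and 0 in control, and Csf3r had 5 in sepsis and 3 in control. Mmp8 had 40 in sepsis and 1 in control, and Cxcr2 had 21 in sepsis and 4 in control. Mpo and Elane had no read in any library.

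Markers of other cells of the muscle were also called, beside 25.2% of all tested genes called lower in sepsis and 25.2% called higher. Of 8 fibroblast and fibro-adipogenic markers 6 fell and none rose, and their sum was 319 to 511 CPM in sepsis and 1330 to 2860 CPM in control, with control replicate 1 the highest there as for class II. Of 10 endothelial markers 4 rose and 2 fell, with overlapping sums of 252 to 335 CPM in sepsis and 233 to 278 CPM in control. Of 8 pericyte and smooth muscle markers 4 fell, and of 9 skeletal muscle markers 8 fell. The part of these cells, and of the leukocytes above, in the class II values was not tested.

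The 5 genes outside the family whose profile over the 8 libraries was nearest to the mean profile of the 6 tested members were Pcyox1, Angpt1, Sdc2, Gprc5c and Kif3c, out of 6955 candidates. The measure was the root-mean-square difference in log2 CPM after subtracting the control mean, and it ran from 0.181 for Pcyox1 to 0.236 for Kif3c. The members' own distances to that mean ran from 0.257 for Cd74 to 0.795 for H2-DMb1. Pcyox1 had 5.30, 9.41 and 6.14 CPM in sepsis, against 26.8, 26.6, 26.4, 22.3 and 19.4 CPM in control. Like the class II sum, it was highest in sepsis replicate 2 within its group.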

How the data were processed

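The deposited values are raw read counts, 1 column for each library, and no other values were used. Per the submitters' processing notes the build was GRCm39. Aligner, counter, strand setting and annotation release are not given in the sources used here, so reads of a gene and of an overlapping antisense gene could not be told apart. Of 25655 rows, 9287 had no read. Every symbol of the 7 members matched its identifier in the name table.

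Counts were filtered with edgeR 4.0.16 in R 4.3.3 (minimum count 10, minimum total 15), scaled by TMM, and fitted over all 8 libraries with the robust quasi-likelihood test and no covariate. Benjamini-Hochberg adjustment ran over 9810 genes, with a threshold of 0.05. The SE is the absolute log2 fold change divided by the square root of F. The procedure was tested on simulated data.

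Alternatives were library totals, upper-quartile factors, no filter, a filter of 10 reads in 3 libraries, DESeq2 1.42.0, leaving out each library and a replicate block. Intervals and floors (3 reads) rest on pooled reads and cover counting error only, not variation between samples. The reads carry no molecular identifiers, so copies of the same molecule could not be told apart. No 2 libraries of a group agreed within sampling noise. Promoters came from RefSeq by symbol.

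Some list genes are not reported here by name. The members and lists were chosen with earlier results of these data known. Named genes are all members, list genes (those called, the 3 smallest p per list or those that describe a list) and the 5 nearest profiles among genes averaging 3 or more in log2 CPM.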

Additional observations from a re-analysis of the deposited data

Results flagged for a closer look

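Cd74 in control replicate 1, at 21.8 CPM, stood apart from the other 4 control libraries, which lay at 12.5 to 14.9 CPM. The gap to the nearest library, divided by the range of the group, passed Dixon's 95% limit of 0.710 for 5 samples. This was the only such value in 12 groups of control values examined, and chance flags about 1 in 20 groups. The same library had the highest H2-Aa, H2-Ab1 and H2-Eb1 among controls and the highest sums of pan-leukocyte (50.04 CPM) and fibroblast markers (2858 CPM). Without it Cd74 had a log2 fold change of -1.70 and stayed past the threshold.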

How the results depend on the processing

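H2-Aa, H2-Ab1, H2-Eb1 and Cd74 kept their direction and their call under all 15 alternatives, with highest adjusted p of 0.000191, 0.00313, 0.00502 and 0.00782 in edgeR or DESeq2. H2-DMa kept its call in the 12 where it could be tested; without control replicate 1, 2 or 3 it failed the filter and the count of members called was 4 in place of 5. H2-DMb1 was called in none of the 13 where it was tested. The summed class II ratio was 0.285 with library totals, and 0.169 to 0.241 when each library was left out in turn.

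Library totals moved the median of all genes on the log2 scale to 0.43, against 0.01 with TMM, and the share of called genes that were higher was 75.3%, against 50.1% with TMM. With library totals the 5 called members had log2 fold changes of -2.29 (H2-Aa), -2.11 (H2-Ab1), -1.66 (H2-Eb1), -1.43 (Cd74) and -1.64 (H2-DMa), and H2-DMb1 had -0.19 (adjusted p = 0.757). With library totals the uncalled log2 fold changes of Mif (0.10), Nfyc (0.067), Creb1 (0.004), Rfx5 (0.11) and Irf8 (0.039) turned positive. Jak1 was -0.037 with upper-quartile factors, -0.013 with the replicate block and -0.003 with the same libraries and no block. Leaving out a library gave -0.14 to 0.11 for Jak1. The cause was not tested.

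Samples with the same replicate number did not deviate together (correlations across genes -0.12, 0.04 and -0.02), so the numbers were not read as pairs. With the replicate block 3557 genes were called, against 3902 in the same 6 libraries with no block (an alternative chosen after seeing the data) and 4943 in all 8. With the block 5 members were called lower, and 4 class I genes, 4 macrophage and monocyte markers and 1 pan-leukocyte marker were called higher. The same 6 libraries with no block gave 5, 5, 4 and 2, and all 8 libraries gave 5, 7, 7 and 4. Depth limits Ciita and the H2-DM genes, at 0 to 14 reads a library.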

Other observations

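Co-stimulatory ligands and their T cell partners, which act beside class II in helper T cell activation, were barely read. Of 13 listed genes 1 was tested and it was not called. With no filter on low counts 1 gene of the list was called lower, and likewise 1 without sepsis replicate 2. Cd28, the T cell receptor for CD80 and CD86, had 2, 7 and 1 reads in sepsis, against 6, 16, 5, 6 and 12 reads in control, so most of its sepsis reads were in replicate 2. In CPM its groups did not overlap, at 0.227 to 1.46 in sepsis and 1.5 to 5.0 in control. Cd40, which receives help from CD4+ T cells on presenting cells, had 0, 3 and 9 reads in sepsis, against 0, 0, 2, 1 and 0 reads in control, so most of its sepsis reads were in replicate 3. Cd80 had 5 reads in sepsis and 8 in control, and Cd86 had 4 in sepsis and 7 in control. Marchf1, a ubiquitin ligase that removes class II from the surface of presenting cells, had 6, 17 and 3 reads in sepsis, against 3, 1, 3, 7 and 1 reads in control. Most of its sepsis reads were in replicate 2, and the groups overlapped.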
